A study of Homo sapiens with 12 samples.

Results

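Interferon-stimulated genes are the genes that cells switch on when a type I or type III interferon binds its receptor. The 38 examined here were taken by gene name from a list of well-known members of this programme. All 38 were found among the 58381 genes of the deposited table, and all 38 passed the filter on low values, which kept 15236 genes. They were followed in 786-O, an established human clear cell renal cell carcinoma line with no functional VHL protein, grown in DMEM with serum. The cells carried 1 of 3 lentiviral hairpins against RARRES2 (shRARRES2_1, shRARRES2_2 or shRARRES2_3) or a control hairpin against GFP (shGFP). Each group held 3 libraries of RNA, so that all 12 libraries, controls included, came from cells infected with a lentivirus, and no uninfected cells or interferon-treated cells were among them. RARRES2 encodes chemerin, a secreted protein that attracts leukocytes and acts in fat tissue. The comparisons address the role of chemerin in this cancer, and each hairpin was set against shGFP.

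Levels are given in CPM, read counts scaled to library size with the authors' TMM factors. The total per library ran between 12599424 and 23594195 reads on genes, so that 3 reads were worth 0.131 to 0.223 CPM. RARRES2 itself was at 37.5 to 92.6 CPM in the 9 hairpin libraries and at 469 to 809 CPM in the 3 shGFP libraries. The labels do not say whether the 3 libraries of a group came from separate cultures, so p-values measure the spread between these libraries, which may be technical. The lineage marker PAX8 (239 to 594 CPM) was present throughout, while PTPRC, CD3E, MS4A1, CD68 and LYZ of leukocytes were at or below 0.178 CPM. Other leukocyte markers had reads in all 12 libraries, ITGAX at 1.13 to 10.3 CPM and CD14 at 0.594 to 2.81 CPM. Of 4 markers of plasmacytoid dendritic cells, which make much interferon in blood, CLEC4C, LILRA4 and GZMB were at 0 in all 12 and IL3RA was at 0.0531 to 8.58 CPM. CA9, a gene that the loss of VHL raises in many renal carcinomas, was at 0.212 to 3.40 CPM. Some libraries stood apart from their group. The replicate 2 libraries of shRARRES2_3 and shGFP were low in mitosis genes (a median of 26.0 and 16.0 CPM over 10 genes, against 64.7 to 331 CPM in the other 10 libraries), and shGFP replicate 2 was the highest in the keratinocyte markers KRT5 (169 CPM) and KRT14 (119 CPM). In shRARRES2_1, replicates 2 and 3 resembled each other far more closely than the libraries of any other pair did, with a chi-square per gene of 3.13 against 73.2 to 427 for the other 11 pairs of replicates. They still differed by more than counting error and were kept as separate libraries. That difference does not show that they came from separate cultures, so the spread within shRARRES2_1 may be too small.

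The pathway runs from sensor to effector. RNA sensors such as RIG-I and MDA5 lead to the making of interferon, which is secreted, binds its receptor and activates a complex that includes STAT2 and IRF9. This complex binds the interferon-stimulated response element, a short DNA motif in front of many of these genes, and their products then block viral RNA, translation or entry, or feed back on the signal. In carcinoma cells the same genes can also be active at a low, lasting level without an infection.

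Many of the promoters share a sequence. RefSeq promoter sequences (GRCh38.p14, 250 bases before to 50 bases after each start) were found for 30 of the 38 genes. The core of the motif was searched on both strands as GAAA, any 2 bases, then GAAA, with overlapping matches counted. It was present in 21 of the 30 genes (70%), against 4.38% of all 27305 gene symbols and 3.57% of all 35116 promoters. With a C required after the second GAAA it was present in 19 of the 30, against 0.952% of all symbols. Because 8 of the genes have several promoter entries, a gene was counted where at least 1 of its entries held the motif. A match describes the letters and is not evidence of binding, and IRF7, DHX58, IFIT2, OAS2, OASL, MX2, USP18 and IFITM2 had no entry. The following 6 are shown for the range they cover: ISG15, IFIT1, IFI6 and IFI27, whose highest library stood 60.7-fold to 155-fold above the lowest, EIF2AK2, which holds the motif but varied 3.77-fold, and STAT2, which holds none. Capitals mark the motif, written as TTTC on the other strand, and each sequence runs 5′ to 3′ in the direction of the gene.

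ISG15, chr1:1013247-1013546, + strand: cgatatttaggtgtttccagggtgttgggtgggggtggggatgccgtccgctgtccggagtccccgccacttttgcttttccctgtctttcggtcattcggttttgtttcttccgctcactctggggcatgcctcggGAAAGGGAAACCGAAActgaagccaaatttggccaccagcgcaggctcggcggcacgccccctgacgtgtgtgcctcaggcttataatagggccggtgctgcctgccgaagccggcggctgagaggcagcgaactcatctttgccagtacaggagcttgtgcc
IFIT1, chr10:89392373-89392672, + strand: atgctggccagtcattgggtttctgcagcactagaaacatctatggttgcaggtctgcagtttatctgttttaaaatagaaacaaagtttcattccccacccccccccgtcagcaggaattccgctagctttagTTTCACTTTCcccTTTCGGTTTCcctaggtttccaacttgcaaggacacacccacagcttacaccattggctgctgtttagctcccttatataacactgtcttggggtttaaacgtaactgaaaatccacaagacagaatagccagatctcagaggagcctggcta
IFI6, chr1:27672143-27672442, - strand: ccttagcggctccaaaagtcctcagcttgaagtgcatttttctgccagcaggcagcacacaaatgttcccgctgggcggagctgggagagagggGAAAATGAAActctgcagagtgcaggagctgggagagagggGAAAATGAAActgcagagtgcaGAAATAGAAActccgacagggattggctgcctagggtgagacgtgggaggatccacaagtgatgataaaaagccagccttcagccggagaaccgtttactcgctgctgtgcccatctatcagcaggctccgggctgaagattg
IFI27, chr14:94110486-94110785, + strand: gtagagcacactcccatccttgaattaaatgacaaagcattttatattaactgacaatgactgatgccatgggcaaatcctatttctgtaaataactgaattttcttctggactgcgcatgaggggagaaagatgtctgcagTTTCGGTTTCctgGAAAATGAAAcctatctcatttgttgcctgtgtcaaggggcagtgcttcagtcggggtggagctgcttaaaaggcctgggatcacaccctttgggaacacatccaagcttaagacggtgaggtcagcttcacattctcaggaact
EIF2AK2, chr2:37156931-37157230, - strand: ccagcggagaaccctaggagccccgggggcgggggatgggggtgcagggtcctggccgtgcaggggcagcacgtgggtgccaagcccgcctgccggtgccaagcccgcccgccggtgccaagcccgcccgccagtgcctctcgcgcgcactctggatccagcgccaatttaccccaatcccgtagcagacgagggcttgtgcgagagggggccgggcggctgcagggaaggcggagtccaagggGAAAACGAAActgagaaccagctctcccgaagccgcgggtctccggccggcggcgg
STAT2, chr12:56360058-56360357, - strand: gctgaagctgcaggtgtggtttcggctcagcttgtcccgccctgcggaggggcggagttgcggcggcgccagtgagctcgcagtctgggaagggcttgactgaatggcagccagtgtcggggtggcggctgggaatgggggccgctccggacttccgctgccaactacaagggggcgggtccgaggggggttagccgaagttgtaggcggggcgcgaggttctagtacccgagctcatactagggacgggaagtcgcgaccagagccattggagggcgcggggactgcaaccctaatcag

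In ISG15 the matches overlapped and began 113 and 107 bases before the start. Those of IFIT1 lay on the opposite strand, 116 and 103 bases before it. IFI6 held 3 matches, 2 of them inside a repeated stretch. In EIF2AK2, the single match began 6 bases before the start. No match was found in the windows of STAT2, IRF9, DDX58, OAS1, HERC6, CMPK2, XAF1, SAMD9L or IFI35. Only a gap of 2 bases was searched, and the windows of DDX58, OAS1, CMPK2, XAF1 and IFI35 hold GAAA pairs with a shorter gap. The lack of a match therefore does not show that a response element is absent.

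Many of the genes lie side by side in families that arose by duplication (GENCODE 29, GRCh38). IFIT2, IFIT3, IFIT1 and IFIT5 lie in that order between bases 89283694 and 89421001 of chromosome 10. OAS1, OAS3 and OAS2 lie between 112906777 and 113011723 of chromosome 12. MX2 and MX1 adjoin each other on chromosome 21, HERC6 and HERC5 on chromosome 4, SAMD9 and SAMD9L on chromosome 7, and IFI44L and IFI44 on chromosome 1. IFITM2, IFITM1 and IFITM3 lie within 307631 to 327537 of chromosome 11, and the annotated spans of IFITM2 and IFITM1 overlap on the same strand. These 3 genes are close relatives, and how alike their sequences are was not computed. Their reads may have been split between them, so their separate values are uncertain. The same holds for CMPK2 and RSAD2, which overlap on opposite strands of chromosome 2, since strand use in counting is not stated, and for USP18, which has a close copy elsewhere on chromosome 22.

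Levels per length ranged widely among the members. Averaged over the 12 libraries and divided by the length of the exons, the highest level was that of IFI6, a mitochondrial protein that restrains cell death, at 414 CPM per kb. ISG15, a ubiquitin-like protein that is joined to other proteins, followed with 305 CPM per kb. BST2, which tethers budding virus to the cell surface, had 295 and IFITM3, which blocks viral fusion, 293 CPM per kb. The lowest were XAF1, a promoter of cell death, with 0.746 CPM per kb, IRF9 with 0.811 and CMPK2 with 0.946.

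No member passed the test against shGFP with any hairpin, although most were higher in shRARRES2_1 than in shGFP. With shRARRES2_1, 35 of the 38 had a log2 change above 0 and the median over the 38 was 1.52 on the log2(CPM + 1) scale. Over all 15236 genes tested, 52.2% were above 0 and the median was 0.037. With shRARRES2_2, 26 of 38 were above 0 and the median was 0.28, against 55.2% and 0.073 for all genes. With shRARRES2_3, 24 of 38 were above 0 and the median was 0.088, against 50.3% and 0.0036 for all genes. For the mean of the 3 hairpins, 32 of 38 were above 0 and the median was 0.62, against 53.2% and 0.038. By limma at a Benjamini-Hochberg adjusted p under 0.05, 0 of the 38 were called in each of these comparisons, where the share of all genes called was 0.171% with shRARRES2_1, 0.0459% with shRARRES2_2, 0.00656% with shRARRES2_3 and 0.00656% for the mean of the hairpins. DESeq2 on the whole reads also called 0 of the 38 in each, beside 3.27%, 2.27%, 0.105% and 0.868% of all genes in the same order. EdgeR called 0 of the 38 in each, beside 0.0197%, 0.0263%, 0.00656% and 0.00656% of all genes.

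At an unadjusted p under 0.05, limma had 4 of the 38 higher with shRARRES2_1 (HERC6, USP18, HERC5 and ISG20), against 8.80% of all genes, and edgeR had 1 and DESeq2 3 of the 38 in either direction, against 16.4% and 20.2% of all genes. The count of 4 was 2 without any 1 of the shRARRES2_1 libraries, 11 without shRARRES2_3 replicate 1, 14 without shRARRES2_3 replicate 2, 1 without shGFP replicate 1, 0 without shGFP replicate 2 and 26 without shGFP replicate 3. In either direction, 16.7% of all genes were under 0.05, and over these omissions 10.1% to 22.2%. Limma had 0 of the 38 with shRARRES2_2 against 13.7% of all genes in either direction, 0 with shRARRES2_3 against 3.32%, and 0 for the mean of the hairpins against 12.6%. DESeq2 had 2 of the 38 with shRARRES2_2, against 15.9% of all genes. All 3 libraries of shRARRES2_1 stood above all 3 of shGFP for 8 members (IFIT1, OAS1, USP18, HERC5, HERC6, BST2, RSAD2 and ISG20), which is 21.1% of the 38 beside 17.0% of all genes. No member had this separation with shRARRES2_2, beside 16.4% of all genes, or with shRARRES2_3, beside 3.03%. None was below shGFP in all 3 libraries of any hairpin, beside 15.0% of all genes with shRARRES2_1, 11.7% with shRARRES2_2 and 3.63% with shRARRES2_3.

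**Figure D1:**
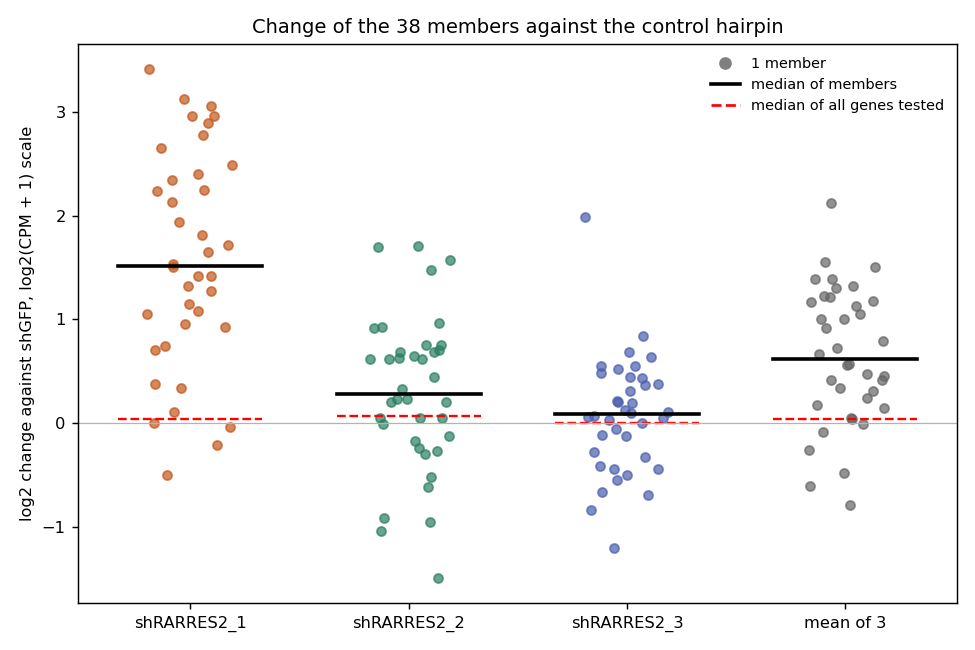
Change of each of the 38 genes against shGFP, on the log2(CPM + 1) scale (vertical axis), for each hairpin and for the mean of the 3 hairpins (horizontal axis). Each point is 1 gene, the black bar is the median of the 38 and the dashed red line the median of all genes tested. The median lies at 1.52 with shRARRES2_1, 0.28 with shRARRES2_2 and 0.088 with shRARRES2_3.

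The size of these medians rested on single control libraries. The median CPM over the 38 genes was 79.2, 76.4 and 83.8 in replicates 1, 2 and 3 of shRARRES2_1, in that order, which is the order used throughout. It was 74.0, 13.1 and 48.7 with shRARRES2_2, and 57.7, 4.91 and 37.1 with shRARRES2_3. With shGFP it was 22.2, 6.57 and 101. The shGFP libraries thus ranged from 6.57 to 101 CPM, and every hairpin library lay within that range except shRARRES2_3 replicate 2. Without shGFP replicate 2 the median log2 change was 0.89 with shRARRES2_1, -0.49 with shRARRES2_2, -0.67 with shRARRES2_3 and -0.22 for the mean of the hairpins. Without shGFP replicate 3 it was 2.72 with shRARRES2_1, 1.44 with shRARRES2_2, 0.99 with shRARRES2_3 and 1.74 for the mean. The sign for shRARRES2_2 and shRARRES2_3 therefore depended on which control library was kept. It also turned without shRARRES2_2 replicate 1 (-0.10) and, for shRARRES2_3, without its replicate 1 (-0.46) or 3 (-0.24) or without shGFP replicate 1 (-0.15). With the libraries scaled to a common total it was -0.025 for shRARRES2_3, with 18 of 38 above 0, and by edgeR with the replicate block -0.087, with 15 of 38 above 0. On the whole reads, edgeR gave medians of 0.73 with shRARRES2_1, -0.26 with shRARRES2_2, -0.17 with shRARRES2_3 and 0.09 for the mean, and DESeq2 gave 0.77, -0.26, -0.13 and 0.11.

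**Figure D2:**
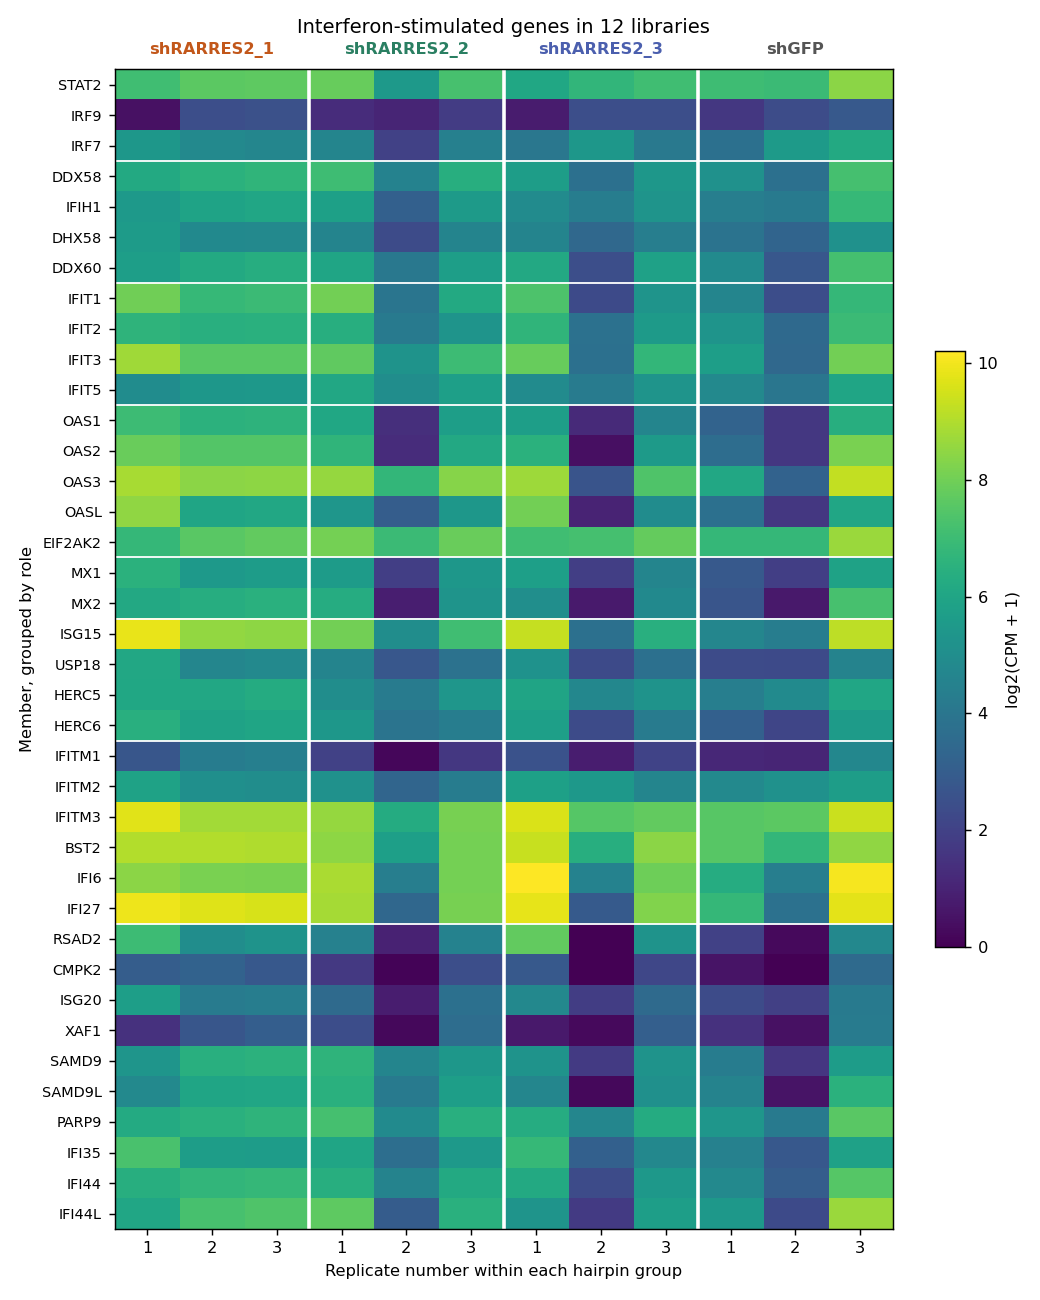
Level of each of the 38 genes (rows, grouped by role) in each of the 12 libraries (columns, 3 replicates per hairpin), as colour on the log2(CPM + 1) scale. Replicate 2 of shRARRES2_2, shRARRES2_3 and shGFP is dark for most genes, while the 3 columns of shRARRES2_1 stay similar to each other and shGFP replicate 3 is among the brightest.

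The ISG15 system included the lowest p-values with shRARRES2_1. ISG15 was at 939, 373 and 351 CPM with shRARRES2_1, 263, 31.5 and 133 CPM with shRARRES2_2, 628, 12.5 and 86.5 CPM with shRARRES2_3, and 24.4, 19.2 and 582 CPM with shGFP. It was lowest in replicate 2 of shRARRES2_3 and high in each shRARRES2_1 library, in shRARRES2_3 replicate 1 and in shGFP replicate 3, so that the groups overlapped. Its log2 change with shRARRES2_1 was 2.90 (SE 1.40, limma adjusted p = 0.315). USP18, the protease that removes ISG15 and dampens receptor signalling, was at 67.9, 24.4 and 26.6 CPM with shRARRES2_1, 23.3, 5.89 and 13.3 CPM with shRARRES2_2, 35.6, 3.84 and 12.7 CPM with shRARRES2_3, and 4.08, 3.85 and 22.5 CPM with shGFP. All 3 shRARRES2_1 libraries lay above shGFP, by little for replicates 2 and 3, and the log2 change was 2.13 (SE 0.78, limma adjusted p = 0.247). HERC6, of the same ligase family as HERC5, had 86.4, 58.6 and 62.9 CPM with shRARRES2_1, 41.4, 14.4 and 18.9 CPM with shRARRES2_2, 52.5, 3.99 and 18.1 CPM with shRARRES2_3, and 7.87, 3.38 and 47.5 CPM with shGFP. Its log2 change with shRARRES2_1 was the one with the lowest p of the 38, at 2.49 (SE 0.88, limma adjusted p = 0.242). The adjusted p of HERC6 ranged between 0.0955 and 0.481 over the alternatives tried. HERC5, the main ligase that attaches ISG15 in human cells, had 66.4, 68.6 and 76.5 CPM with shRARRES2_1, 30.9, 17.9 and 40.1 CPM with shRARRES2_2, 60.4, 25.4 and 36.5 CPM with shRARRES2_3, and 19.7, 28.6 and 64.9 CPM with shGFP. The shRARRES2_1 libraries lay just above the highest shGFP library, and the log2 change was 1.06 (SE 0.44, limma adjusted p = 0.270).

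Among effectors that bind viral RNA, the IFIT genes IFIT1, IFIT2 and IFIT3 varied more within every other group than within shRARRES2_1. Replicates 2 and 3 of shRARRES2_1 were nearly alike over all genes. IFIT1, which binds RNA with foreign caps, had 253, 112 and 124 CPM with shRARRES2_1, 262, 14.8 and 73.2 CPM with shRARRES2_2, 162, 3.94 and 38.2 CPM with shRARRES2_3, and 23.8, 4.26 and 109 CPM with shGFP. IFIT2 was at 98.9, 86.0 and 88.0 CPM with shRARRES2_1, 83.3, 17.2 and 37.9 CPM with shRARRES2_2, 103, 12.8 and 46.6 CPM with shRARRES2_3, and 37.8, 10.3 and 122 CPM with shGFP. IFIT3, a partner of IFIT1, stood at 424, 192 and 193 CPM with shRARRES2_1, 207, 37.3 and 128 CPM with shRARRES2_2, 228, 12.5 and 107 CPM with shRARRES2_3, and 52.2, 10.0 and 261 CPM with shGFP. For each of them the 3 libraries numbered 2 outside shRARRES2_1 were the 3 lowest, and hairpin and control values overlapped except for IFIT1 with shRARRES2_1. The log2 changes with shRARRES2_1 were 2.65 (SE 1.31) for IFIT1, 1.28 (SE 0.85) for IFIT2 and 2.23 (SE 1.13) for IFIT3, with limma adjusted p of 0.321, 0.415 and 0.330. IFIT5 had the narrowest range of the family, with 14.9 to 69.4 CPM over the 12 libraries.

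The OAS enzymes make 2-5A, the messenger that activates RNase L. OAS1 had 128, 93.4 and 96.0 CPM with shRARRES2_1, 66.3, 1.60 and 51.1 CPM with shRARRES2_2, 51.5, 1.35 and 24.0 CPM with shRARRES2_3, and 8.39, 2.13 and 83.6 CPM with shGFP, and OAS2 had 235, 176 and 178 CPM with shRARRES2_1, 103, 1.43 and 71.2 CPM with shRARRES2_2, 89.4, 0.349 and 46.0 CPM with shRARRES2_3, and 11.6, 2.18 and 281 CPM with shGFP. OAS1 separated shRARRES2_1 from shGFP, whereas the 281 CPM of OAS2 in shGFP replicate 3 were the highest of its 12 values. OASL, a relative that lacks this enzyme activity and aids RIG-I, was at 368, 62.8 and 69.4 CPM with shRARRES2_1, 39.7, 7.07 and 41.0 CPM with shRARRES2_2, 258, 0.998 and 30.5 CPM with shRARRES2_3, and 12.7, 2.13 and 65.6 CPM with shGFP. Its replicate 1 values with shRARRES2_1 and shRARRES2_3 stood far above all other libraries. OAS3 spanned 5.29 to 621 CPM. The log2 changes of OAS1, OAS2, OAS3 and OASL with shRARRES2_1 lay at 2.96 (SE 1.41), 3.12 (SE 1.82), 2.40 (SE 1.49) and 3.06 (SE 1.52), and none passed the limma test. EIF2AK2, the kinase PKR that halts translation on sensing double-stranded RNA, behaved unlike them. It had 111, 193 and 214 CPM with shRARRES2_1, 265, 122 and 232 CPM with shRARRES2_2, 136, 147 and 223 CPM with shRARRES2_3, and 110.3, 109 and 410.1 CPM with shGFP. Its highest value was 3.77 times its lowest, and its log2 change was -0.04 with shRARRES2_1 (SE 0.50), 0.20 with shRARRES2_2 and -0.05 with shRARRES2_3.

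**Figure D3:**
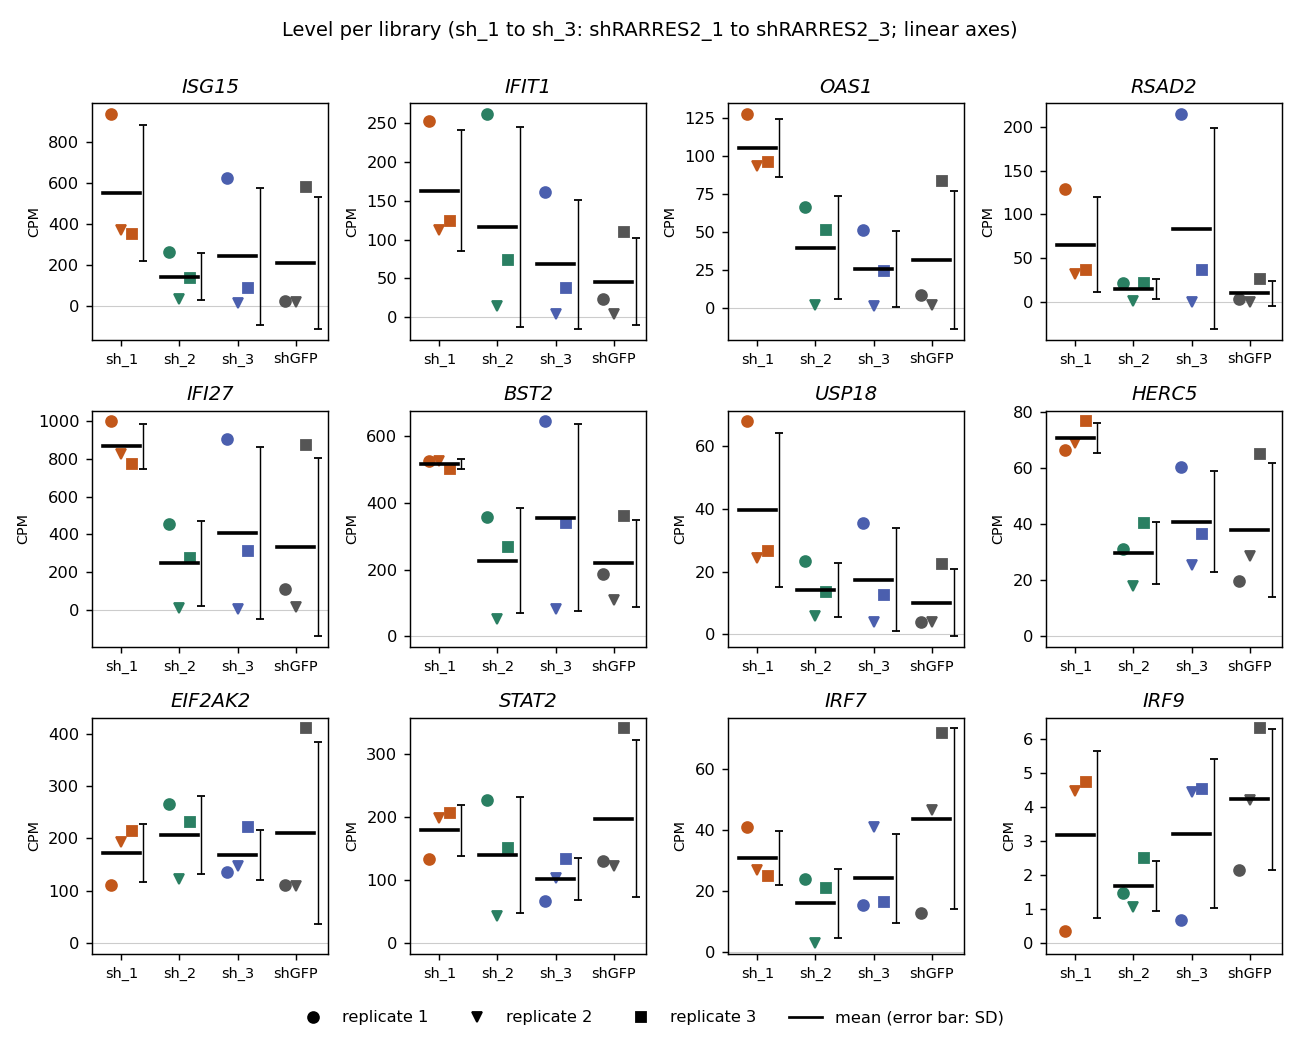
CPM of 12 of the genes in each library (vertical axes, linear) by hairpin group (horizontal axes, sh_1 to sh_3 for shRARRES2_1 to shRARRES2_3). Symbols mark the replicate number, bars the mean and the line beside them the SD over 3 libraries. Triangles (replicate 2) sit lowest outside shRARRES2_1 for ISG15, IFIT1, OAS1, RSAD2, IFI27 and BST2, and not for IRF7 and IRF9 in shRARRES2_3 and shGFP.

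The MX proteins are GTPases that trap incoming viral particles. MX1 was at 89.6, 45.1 and 48.8 CPM with shRARRES2_1, 47.1, 2.73 and 41.7 CPM with shRARRES2_2, 53.4, 2.69 and 24.0 CPM with shRARRES2_3, and 6.31, 2.70 and 57.9 CPM with shGFP. In replicate 2 it was within 2.69 to 2.73 CPM in the other 3 groups. Its log2 change with shRARRES2_1 was 2.34 (SE 1.19, limma adjusted p = 0.331). MX2 ran from 0.624 to 148 CPM and was highest in shGFP replicate 3.

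Membrane and mitochondrial proteins held the most abundant members. IFI27, a small mitochondrial and nuclear membrane protein, averaged 866 ± 118 CPM with shRARRES2_1, 246 ± 224 with shRARRES2_2, 407 ± 457 with shRARRES2_3 and 332 ± 470.4 with shGFP (SD, n = 3 each). Library by library it was at 999, 826 and 773 CPM with shRARRES2_1, 455, 9.69 and 274 CPM with shRARRES2_2, 905, 6.43 and 310.1 CPM with shRARRES2_3, and 110.0, 13.1 and 872 CPM with shGFP. Thus its shRARRES2_1 values lay close together, in a group whose replicates 2 and 3 were nearly alike over all genes. Each other group held both very low and very high libraries. IFI6 was at 346, 285 and 275 CPM with shRARRES2_1, 483, 19.4 and 269 CPM with shRARRES2_2, 1179, 21.7 and 247 CPM with shRARRES2_3, and 77.9, 19.5 and 1076 CPM with shGFP, with its peaks in shRARRES2_3 replicate 1 and shGFP replicate 3. BST2 had 526, 525 and 501 CPM with shRARRES2_1, 358, 52.5 and 269 CPM with shRARRES2_2, 645, 82.7 and 340.4 CPM with shRARRES2_3, and 186, 107 and 362 CPM with shGFP. The 3 shRARRES2_1 values of BST2 were nearly equal and above all shGFP values, with a log2 change of 1.42 (SE 0.78, limma adjusted p = 0.350). IFITM3 had 868, 443 and 442 CPM with shRARRES2_1, 388, 75.8 and 278 CPM with shRARRES2_2, 800.1, 183 and 217 CPM with shRARRES2_3, and 186, 196 and 670.2 CPM with shGFP. IFITM1, counted at far lower levels, had 5.63, 18.3 and 20.2 CPM with shRARRES2_1, 2.91, 0.119 and 2.18 CPM with shRARRES2_2, 4.87, 0.748 and 3.12 CPM with shRARRES2_3, and 1.19, 1.09 and 25.2 CPM with shGFP. It was lower in all shRARRES2_2 and shRARRES2_3 libraries than in any shRARRES2_1 library. IFITM2 was at 57.5, 33.2 and 31.2 CPM with shRARRES2_1, 35.02, 9.10 and 18.4 CPM with shRARRES2_2, 55.1, 42.1 and 23.7 CPM with shRARRES2_3, and 26.6, 35.1 and 50.4 CPM with shGFP. With shRARRES2_2 it had the lowest p of the 38, with a log2 change of -0.95 (SE 0.46, limma adjusted p = 0.381), and this was -0.49 without shRARRES2_2 replicate 2.

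RSAD2 and CMPK2 had no read in some libraries. RSAD2, viperin, which makes a chain-terminating nucleotide, had 128, 31.3 and 36.5 CPM with shRARRES2_1, 21.1, 0.951 and 21.8 CPM with shRARRES2_2, 214, 0 and 36.6 CPM with shRARRES2_3, and 2.97, 0.208 and 26.2 CPM with shGFP. The 0 in shRARRES2_3 replicate 2 allows up to 0.150 CPM, and the same group held the highest value, in replicate 1. The log2 change of RSAD2 was 3.41 with shRARRES2_1 (SE 1.69, limma adjusted p = 0.321) and 1.98 with shRARRES2_3 (SE 1.69, limma adjusted p = 0.876). Without shRARRES2_3 replicate 1 the second of these was 0.27 and without its replicate 2 it was 4.15. CMPK2, a mitochondrial nucleotide kinase that lies beside RSAD2, had 7.06, 8.14 and 6.06 CPM with shRARRES2_1, 2.22, 0.0594 and 4.45 CPM with shRARRES2_2, 6.20, 0 and 3.49 CPM with shRARRES2_3, and 0.445, 0 and 10.7 CPM with shGFP. Its 0 in replicate 2 allows up to 0.150 CPM with shRARRES2_3 and up to 0.156 CPM with shGFP. XAF1 was at 1.75, 5.72 and 7.35 CPM with shRARRES2_1, 4.28, 0.178 and 11.4 CPM with shRARRES2_2, 0.638, 0.200 and 7.55 CPM with shRARRES2_3, and 1.71, 0.364 and 18.1 CPM with shGFP. It did not follow RSAD2, since in shRARRES2_1 and shRARRES2_3 replicate 1 was below replicate 3 for XAF1 and above it for RSAD2. ISG20, an exonuclease that degrades RNA, averaged 29.4 ± 18.8 CPM with shRARRES2_1 and 8.03 ± 7.98 CPM with shGFP (SD, n = 3 each), a log2 change of 1.94 (SE 0.89, limma adjusted p = 0.298).

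SAMD9, which restrains translation and poxvirus growth, was at 38.4, 85.0 and 92.9 CPM with shRARRES2_1, 97.2, 23.8 and 41.3 CPM with shRARRES2_2, 37.0, 2.29 and 36.5 CPM with shRARRES2_3, and 18.6, 2.08 and 48.4 CPM with shGFP. Its log2 change was 2.25 with shRARRES2_1 (SE 1.04, limma adjusted p = 0.301) and 1.70 with shRARRES2_2 (SE 1.04, limma adjusted p = 0.471). The change with shRARRES2_2 was 0.59 without shGFP replicate 2 and 2.59 without shGFP replicate 3. PARP9, an ADP-ribosylation factor that works with the ligase DTX3L, had 75.4, 88.6 and 97.4 CPM with shRARRES2_1, 144, 28.7 and 85.0 CPM with shRARRES2_2, 79.8, 24.7 and 76.7 CPM with shRARRES2_3, and 40.5, 17.2 and 191 CPM with shGFP. IFI44L, which dampens the response through FKBP5, had 64.8, 148 and 166 CPM with shRARRES2_1, 201, 6.90 and 87.0 CPM with shRARRES2_2, 38.4, 2.34 and 52.2 CPM with shRARRES2_3, and 42.4, 3.90 and 403 CPM with shGFP. Both were highest in shGFP replicate 3, where IFI44L exceeded the next library by a wide margin. SAMD9L, IFI35 and IFI44 spanned 0.150 to 91.7, 6.03 to 153 and 4.04 to 182 CPM over the 12 libraries.

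The RNA sensors spanned less between libraries than the OAS genes did. DDX58, which encodes RIG-I, was at 72.7, 90.5 and 102 CPM with shRARRES2_1, 130.1, 22.3 and 84.3 CPM with shRARRES2_2, 49.6, 12.5 and 41.3 CPM with shRARRES2_3, and 34.97, 12.7 and 146 CPM with shGFP. IFIH1, which encodes MDA5, had 44.1, 60.0 and 65.5 CPM with shRARRES2_1, 54.0, 7.73 and 46.3 CPM with shRARRES2_2, 29.4, 19.0 and 38.1 CPM with shRARRES2_3, and 19.8, 16.7 and 113 CPM with shGFP. The groups overlapped for both, and the log2 changes with shRARRES2_1 were 1.09 for DDX58 (SE 0.81) and 0.71 for IFIH1 (SE 0.74). DHX58, another helicase of this family that modulates both, ran from 4.10 to 47.5 CPM, and DDX60 from 4.54 to 145 CPM.

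Of the 3 members not above 0 with shRARRES2_1, IRF9 and IRF7 were transcription factors that drive the programme, and the other was EIF2AK2. STAT2, a subunit of the complex that binds the response element, was at 132, 199 and 206 CPM with shRARRES2_1, 226, 43.6 and 151 CPM with shRARRES2_2, 67.5, 103 and 134 CPM with shRARRES2_3, and 129, 122 and 339.7 CPM with shGFP. IRF9, its DNA-binding partner, had 0.372, 4.46 and 4.73 CPM with shRARRES2_1, 1.48, 1.07 and 2.49 CPM with shRARRES2_2, 0.695, 4.44 and 4.52 CPM with shRARRES2_3, and 2.15, 4.21 and 6.30 CPM with shGFP. IRF7, which amplifies interferon production, was at 41.0, 26.8 and 24.9 CPM with shRARRES2_1, 23.9, 2.91 and 21.0 CPM with shRARRES2_2, 15.3, 40.8 and 16.3 CPM with shRARRES2_3, and 12.7, 46.4 and 71.6 CPM with shGFP. With shRARRES2_1 the log2 changes were 0.00 for STAT2 (SE 0.56), -0.49 for IRF9 (SE 0.60) and -0.21 for IRF7 (SE 0.73). With shRARRES2_2, IRF7 was at -1.49 (SE 0.73, limma adjusted p = 0.382), which became -0.63 without shRARRES2_2 replicate 2. With shRARRES2_3, STAT2 had the lowest p of the 38, at -0.84 (SE 0.56, limma adjusted p = 0.876), and IRF7 was at -0.67 (SE 0.73, limma adjusted p = 0.876). These changed to -0.36 for STAT2 and -0.16 for IRF7 without shGFP replicate 3.

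The hairpins were also compared with each other. The differences themselves leave out the shGFP libraries, but the spread behind the test came from all 12 libraries, shGFP included. The median log2 difference over the 38 genes was 1.23 for shRARRES2_1 against shRARRES2_2, with 36 of 38 above 0, and 1.40 for shRARRES2_1 against shRARRES2_3, with 37 of 38 above 0. Over all genes these medians were -0.032 and 0.015, with 46.6% and 51.4% above 0. Both differences include the low replicate 2 of shRARRES2_2 or shRARRES2_3 (medians of 13.1 and 4.91 CPM over the 38 genes). Values without those libraries are not given here. For shRARRES2_2 against shRARRES2_3 the median was 0.21, with 21 of 38 above 0, beside 0.046 and 54.2% for all genes. The moderated F-test between the 3 hairpins called 0 of the 38 at an adjusted p under 0.05, where it called 0.249% of all genes. At an unadjusted p under 0.05 limma's F-test had 2 members, against 11.0% of all genes. They were HERC5 (limma adjusted p = 0.40) and IFITM1 (limma adjusted p = 0.402). In 28 of the 38 genes the mean CPM was highest in shRARRES2_1 of the 4 groups, and in 6 it was highest in shGFP. The share of all genes is not given here, so these counts have no background, and the means include the low replicate 2 libraries.

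In 3 of the 4 groups most of the genes were far lower in replicate 2 than in the other replicates. In shRARRES2_2, replicate 2 lay below the mean of replicates 1 and 3 for 38 of 38 genes, in shRARRES2_3 for 34 and in shGFP for 36. The median log2 difference was -2.10 with shRARRES2_2, -2.59 with shRARRES2_3 and -2.40 with shGFP. It exceeded 1 log2 unit downwards for 34, 30 and 31 of the 38 genes in these groups, while 5.35%, 17.0% and 12.2% of all genes did so. In shRARRES2_1 the median was -0.10, 21 of 38 were below 0 and 2 were below -1. That value cannot be set directly beside the others, because replicates 2 and 3 of shRARRES2_1 were nearly alike. Replicate 2 minus replicate 1 alone had a median of -0.24 with shRARRES2_1, -2.33 with shRARRES2_2, -3.19 with shRARRES2_3 and -1.10 with shGFP. For 37 of the 38 genes the lowest of the 12 libraries was replicate 2 of shRARRES2_2, shRARRES2_3 or shGFP, the exception being IRF9, and for 25 those were the 3 lowest. The highest library was shGFP replicate 3 for 18 genes and shRARRES2_1 replicate 1 for 13. For these counts of lowest and highest libraries, the share of all genes is not given here.

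**Figure D4:**
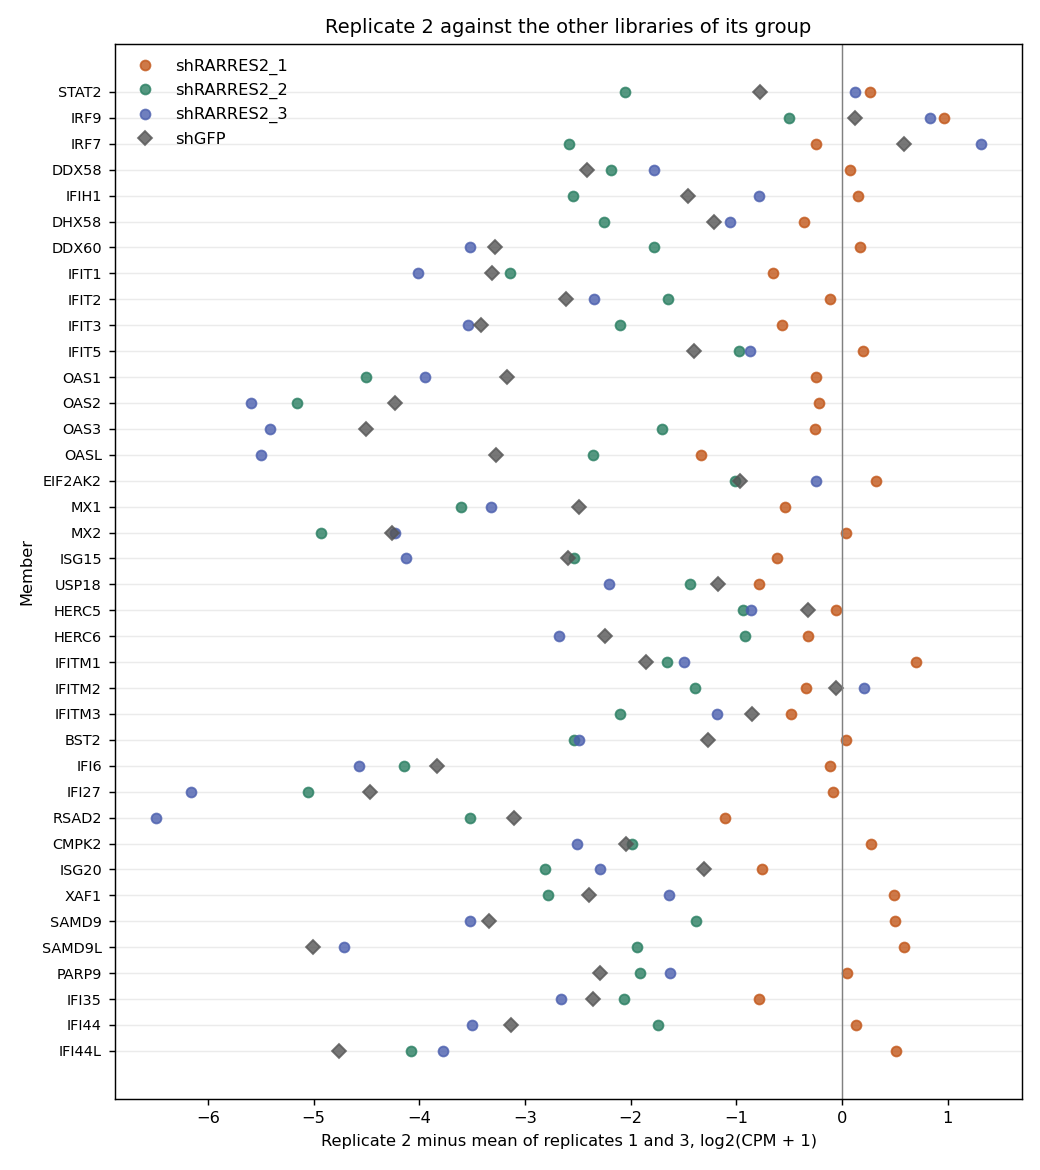
Difference between replicate 2 and the mean of replicates 1 and 3 of the same group (horizontal axis, log2(CPM + 1) scale) for each of the 38 genes (vertical axis), coloured by group. Points of shRARRES2_1 gather near 0 (median -0.10), while those of shRARRES2_2, shRARRES2_3 and shGFP lie to the left (medians -2.10, -2.59 and -2.40) for most genes. The points right of 0 in shRARRES2_3 belong to STAT2, IRF9, IRF7 and IFITM2, and those in shGFP to IRF9 and IRF7.

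The differences furthest below 0 were those of RSAD2 (-6.49), IFI27 (-6.16), OAS2 (-5.59), OASL (-5.50) and OAS3 (-5.42) in shRARRES2_3, OAS2 (-5.16) and IFI27 (-5.05) in shRARRES2_2, and SAMD9L (-5.00) in shGFP. The transcription factors differed between groups. IRF7 was at 1.32 in shRARRES2_3 and 0.59 in shGFP but at -2.58 in shRARRES2_2, and STAT2 was at 0.12 in shRARRES2_3, -0.77 in shGFP and -2.06 in shRARRES2_2. A moderated F-test of replicate number beside group called 0 of the 38 at an adjusted p under 0.05, as for all genes (0% called). At an unadjusted p under 0.05 it had 32 of the 38, or 84.2%, against 16.4% of all genes. The lowest was that of XAF1 (limma adjusted p = 0.279), and IFITM3, IFITM1, HERC5, STAT2, IFITM2 and IRF7 were the 6 above 0.05. This count was 18 without shGFP replicate 2 and 3 without all 4 libraries numbered 2. The share of all genes in those fits is not given here, so these counts cannot be set against a background. The labels do not say what libraries of the same number have in common.

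**Figure D5:**
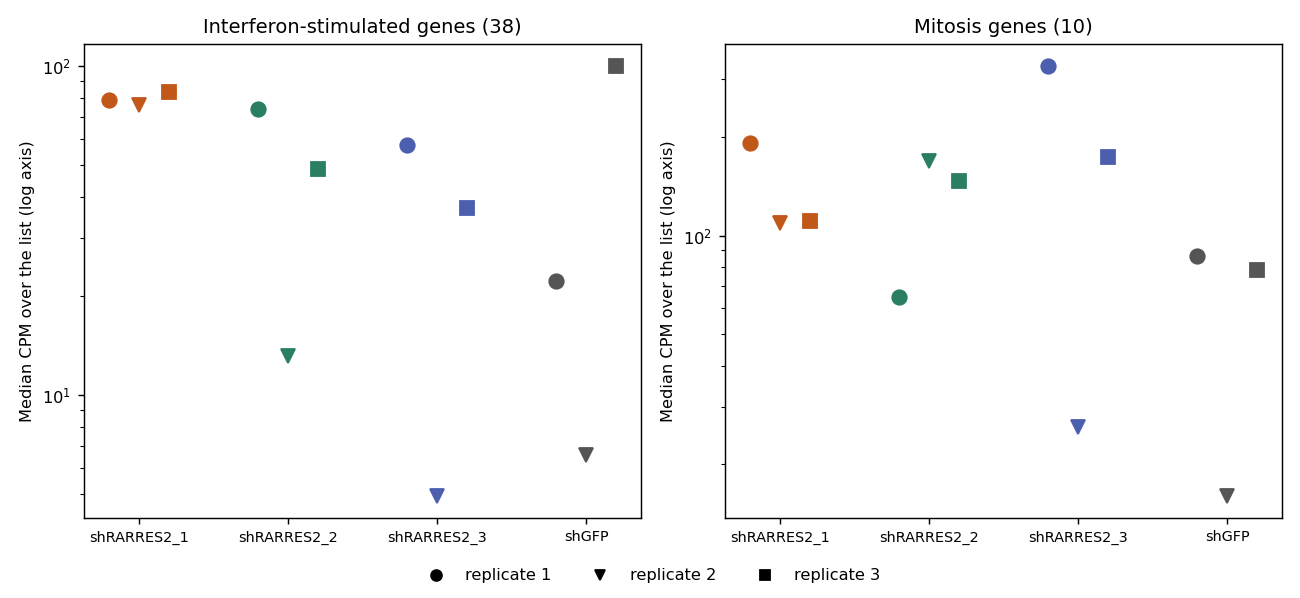
Median CPM (vertical axes, logarithmic) over the 38 interferon-stimulated genes (left) and over 10 mitosis genes (right) in each library, by hairpin group (horizontal axes) with the replicate number as symbol. Replicate 2 of shRARRES2_3 and shGFP is low in both lists, while replicate 2 of shRARRES2_2 is low in the first list (13.1 CPM) and not in the second (169 CPM).

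In shRARRES2_3 and shGFP the low values of replicate 2 went with low mitosis genes (26.0 and 16.0 CPM), and in shGFP with high keratinocyte and fibroblast markers. The summed level of 6 keratinocyte markers was 372 CPM in shGFP replicate 2 and 46.3 to 127 CPM in the other 11 libraries, with KRT1 at 0 in all 12. The 4 fibroblast markers summed to 57.5 CPM in shGFP replicate 2 and to 2.60 to 25.8 CPM in the other 11. The 7 renal carcinoma markers summed to 745 CPM in shRARRES2_3 replicate 2 and 1079 CPM in shGFP replicate 2, below the 1288 to 7116 CPM of the other 10. VIM, KRT8, KRT18, CDH6 and PAX2 had their fewest reads in these libraries, but PAX8 and CA9 did not. PAX8 had 5535 and 7526 reads there, against 4083 to 13615 in the other 10. CA9 had 64 and 22 reads, against 4 to 73. In shRARRES2_2 replicate 2 none of these differences in mitosis genes and marker sums held. The mitosis genes had a median of 169 CPM, and the markers summed to 57.7 CPM for keratinocytes, 14.0 CPM for fibroblasts and 3210 CPM for renal carcinoma. The part of these differences in the levels of the interferon-stimulated genes was not tested. In such bulk libraries, fewer cells with an active response and less RNA per cell cannot be told apart. The spread within a group also differed. The median SD of the 38 genes on the log2 scale was 0.416 with shRARRES2_1, 1.25 with shRARRES2_2, 1.62 with shRARRES2_3 and 1.94 with shGFP. Over all genes tested it was 0.358, 0.291, 0.506 and 0.362 in the same order. The SD of shRARRES2_1 cannot be set directly beside the others, because its replicates 2 and 3 were nearly alike. With the 4 libraries numbered 2 left out, the median log2 change was 0.84 with shRARRES2_1, 0.32 with shRARRES2_2 and 0.18 with shRARRES2_3. In these fits 0 members passed the test, where only 1, 0 and 1 of all 14526 genes tested did so in the same order.

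A further split ran through the shRARRES2_1 group. Replicate 1 exceeded the mean of replicates 2 and 3 for 22 of the 38 genes and lay below it for 16. Among the first were OASL (2.46), RSAD2 (1.90), IFI35 (1.61), ISG15 (1.37) and USP18 (1.38) on the log2 scale, and among the second IRF9 (-2.03), IFITM1 (-1.61), XAF1 (-1.44), IFI44L (-1.26) and SAMD9L (-1.23). The difference between replicate 1 and replicate 3 of shRARRES2_3 had the same sign for 29 of the 38. The genes above had a median of 3972 bases of annotated exon and those below 6362 bases. Both replicate 1 libraries also had the fewest genes with a read (21217 for shRARRES2_1 and 20932 for shRARRES2_3, against 24065 to 27603 in the other 10 libraries). The part of library make-up in this split was not tested.

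Of 67 other genes of the pathway, 57 passed the filter, and 1 of them passed the test. IRF8, an interferon regulatory factor best known from blood cells, was at 15.7, 9.16 and 8.45 CPM with shRARRES2_1, 4.92, 3.75 and 1.66 CPM with shRARRES2_2, 4.35, 0.0499 and 1.21 CPM with shRARRES2_3, and 0.817, 0 and 0.532 CPM with shGFP. The 3 shRARRES2_1 libraries lay above all others, and the log2 change was 3.06 (SE 0.53, limma adjusted p = 0.0474). This call was lost in 18 of 25 alternatives, over which the adjusted p ranged between 0.0021 and 0.254, and it was lost on leaving out any 1 library other than shRARRES2_3 replicate 1 or 2. Among leukocyte markers, ITGAX was at 4.83, 9.40 and 8.12 CPM with shRARRES2_1, 8.20, 1.13 and 10.3 CPM with shRARRES2_2, 3.36, 1.95 and 4.80 CPM with shRARRES2_3, and 5.94, 2.81 and 4.21 CPM with shGFP, while PTPRC, CD3E, MS4A1 and CD68 were at or below 0.148 CPM throughout. The part of other cell types in the level of IRF8 was not tested. No other pathway gene passed in either direction with any hairpin. The next lowest p with shRARRES2_1 belonged to SP110, a nuclear body protein, at a log2 change of 1.58 (SE 0.51, limma adjusted p = 0.220), and to TNFSF10, the death ligand TRAIL, at -1.63 (SE 0.55, limma adjusted p = 0.235). SP110 had 43.6, 41.7 and 37.7 CPM with shRARRES2_1, 34.4, 15.0 and 18.2 CPM with shRARRES2_2, 32.2, 7.63 and 18.2 CPM with shRARRES2_3, and 8.61, 9.67 and 26.0 CPM with shGFP. TNFSF10 had 148, 258 and 263 CPM with shRARRES2_1, 497, 103 and 357 CPM with shRARRES2_2, 462, 399 and 617 CPM with shRARRES2_3, and 794, 354 and 1078 CPM with shGFP, and all 3 shRARRES2_1 libraries lay below all 3 shGFP libraries.

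With shRARRES2_2 the lowest p of these 57 belonged to IFNGR1, the ligand-binding chain of the interferon gamma receptor, at a log2 change of -1.71 (SE 0.41, limma adjusted p = 0.171). IFNGR1 had 52.5, 70.3 and 76.5 CPM with shRARRES2_1, 31.0, 25.3 and 37.5 CPM with shRARRES2_2, 30.6, 117 and 43.9 CPM with shRARRES2_3, and 85.8, 125 and 103 CPM with shGFP, so that all shRARRES2_2 libraries were below all shGFP libraries. IRF8 followed at 1.58 (SE 0.53, limma adjusted p = 0.275) and MAVS, the mitochondrial adaptor of the RNA sensors, at 0.70 (SE 0.25, limma adjusted p = 0.290). MAVS was at 162, 184 and 192 CPM with shRARRES2_1, 408, 289 and 311 CPM with shRARRES2_2, 203, 150.3 and 197 CPM with shRARRES2_3, and 231, 167 and 221 CPM with shGFP. With shRARRES2_3 the lowest were GBP2, a guanylate-binding protein, at -1.03 (SE 0.43), SHISA5, an apoptosis regulator of the endoplasmic reticulum, at -0.74 (SE 0.40), and IFNGR1 at -0.92 (SE 0.41), each with a limma adjusted p of 0.876. GBP2 had 11.4, 18.6 and 18.2 CPM with shRARRES2_1, 8.36, 6.72 and 17.9 CPM with shRARRES2_2, 4.87, 11.97 and 7.13 CPM with shRARRES2_3, and 24.7, 10.4 and 17.0 CPM with shGFP, and SHISA5 had 402, 206 and 198 CPM with shRARRES2_1, 293, 180.4 and 248 CPM with shRARRES2_2, 183, 93.9 and 90.8 CPM with shRARRES2_3, and 162, 146 and 313 CPM with shGFP.

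The signalling chain above the 38 genes was present and mostly even. The receptor chain IFNAR1 had 77.4, 78.9 and 84.1 CPM with shRARRES2_1, 107, 88.3 and 85.7 CPM with shRARRES2_2, 89.2, 61.2 and 103 CPM with shRARRES2_3, and 79.6, 40.8 and 90.7 CPM with shGFP. IFNAR2, the other chain, was barely detected, with 0.212, 1.60 and 1.48 CPM with shRARRES2_1, 0.741, 0.178 and 1.48 CPM with shRARRES2_2, 0.522, 2.54 and 1.63 CPM with shRARRES2_3, and 1.19, 2.29 and 2.13 CPM with shGFP. The kinases JAK1 and TYK2 were at 213 to 467 CPM and 103 to 193 CPM over the 12 libraries. None of these passed the test with any hairpin.

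IRF3, which starts interferon transcription, had 149.6, 60.4 and 53.1 CPM with shRARRES2_1, 61.5, 55.8 and 82.7 CPM with shRARRES2_2, 157, 83.8 and 82.1 CPM with shRARRES2_3, and 48.4, 83.4 and 72.5 CPM with shGFP. TMEM173, which encodes STING, had 88.8, 29.8 and 29.3 CPM with shRARRES2_1, 8.94, 5.41 and 13.8 CPM with shRARRES2_2, 41.4, 1.35 and 11.7 CPM with shRARRES2_3, and 24.8, 3.07 and 28.5 CPM with shGFP. It was higher in replicate 1 than in the other replicates of shRARRES2_1 and shRARRES2_3. MB21D1, which encodes the DNA sensor cGAS, was at 34.1, 27.0 and 24.9 CPM with shRARRES2_1, 24.7, 40.2 and 34.5 CPM with shRARRES2_2, 32.2, 20.9 and 28.2 CPM with shRARRES2_3, and 18.6, 23.8 and 45.5 CPM with shGFP. The log2 changes of TMEM173 were 1.59 with shRARRES2_1 (SE 0.96), -0.57 with shRARRES2_2 and -0.43 with shRARRES2_3, and those of MB21D1 lay between -0.03 and 0.25.

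Interferon transcripts themselves had few reads or none. IFNB1 had 30 reads in all, spread over 9 libraries with at most 8 in 1 library. IFNA2 had 0 reads, IFNA1 3 and IFNG 2 over the 12 libraries. IFNL1 had 18 reads in 4 libraries, namely replicates 1 and 3 of shRARRES2_1 and shRARRES2_3. IFNE, a type I interferon of epithelia, was the most abundant, with 199 reads over 11 libraries and at most 39 in 1 library. The libraries with the lowest levels of interferon-stimulated genes had 2 (shRARRES2_2), 1 (shRARRES2_3) and 0 (shGFP) IFNB1 reads in replicate 2, and shGFP replicate 3 had 4. Such counts are too few to order the libraries.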

How the data were processed

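Expression was measured by RNA sequencing in 12 libraries, and groups and replicate numbers were read from the sample titles. The values the authors deposited are a signal per gene, TMM-scaled CPM. The submitters' processing notes name STAR 2.5.2, edgeR, CASAVA and Trim Galore 0.6.1 and the GRCh38 (hg38) build. The counting annotation and strand setting are not given in the sources used here. All values (100%, tolerance 1e-06) were whole multiples of 1 read, so reads per library are known. Scaling factors ran from 0.788 to 1.15, so columns do not share 1 total as plain CPM would. The test was kept.

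Genes reaching 1 CPM in 3 or more libraries were fitted as log2(CPM + 1) with limma 3.58.1 (R 4.3.3) over all 12 libraries, with a variance trend and Benjamini-Hochberg adjustment over the 15236 genes tested at 0.05. Fold changes on this scale understate the change of low genes. Counting intervals and the limit of 3 reads cover counting error only. The script was tested on simulated data. Alternatives covered pseudocount, filter, scaling, trend, the groups fitted, a replicate block, edgeR 4.0.16 and DESeq2 1.42.0 on the whole reads, and each library left out. The 38 genes and all lists were chosen with earlier results of these data known. The genes given in every library were the 3 with the lowest p per hairpin plus a list of 26 by role, and for other pathway genes those called, the 3 with the lowest p per hairpin and 10 core components, not all of which are reported here. The labels do not say what a replicate number shares. Deviations of same-numbered libraries from their group means correlated over all genes at 0.27, 0.60 and 0.52 between shRARRES2_3 and shGFP. Between shRARRES2_1 and shRARRES2_3 they correlated at 0.75, 0.49 and 0.41. Pairs of shRARRES2_1 or shRARRES2_2 with shGFP did not all exceed 0.1. The values were -0.099, -0.193 and 0.143 between shRARRES2_1 and shRARRES2_2, and -0.139, -0.152 and 0.152 between shRARRES2_2 and shRARRES2_3. Libraries of unlike number could correlate too, as shRARRES2_3 replicate 3 with shGFP replicate 1 (0.387). Promoters and start sites are RefSeq's on GRCh38.p14.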

Additional observations from a re-analysis of the deposited data

How the results depend on the processing

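No member was called against shGFP, for any hairpin or for the mean of the 3, under any alternative run, including edgeR and DESeq2 on the whole reads, and none was called between the hairpins (DESeq2 was not run for that test). Against shGFP these alternatives called from 0 to 497 of all genes tested. The count of members at an unadjusted p under 0.05 with shRARRES2_1, 4 as reported, was 16 with only both compared groups in the fit (19.6% of all genes), 19 with the replicate block (22.8%), 1 by edgeR (16.4%), 14 by edgeR with the replicate block (20.5%) and 2 with shRARRES2_1 replicates 2 and 3 averaged (14.2%), and ranged from 0 to 26 when each library was left out (10.1% to 22.2% of all genes). The cause was not tested. The replicate block changed no call of a member, and the pairing it assumes is a hint from some pairs of groups only, not from the labels. For replicate number, the unadjusted count of 32 became 3 without the 4 libraries numbered 2 and ranged from 18 to 34 over single omissions, and the adjusted count ranged from 0 to 1, the 1 appearing without shRARRES2_1 replicate 2. The share of all genes in those replicate-number fits is not given here. The motif was in 21 genes, or 19 in its longer form. Among recomputed values of single genes, 18, all of IRF8, lost the call, and 307 kept the direction and were called or not called as before. Only IRF8 was called to begin with, and it kept its call in 7 of 25 alternatives. For the other genes the outcome means only the same sign without a call. Their sizes moved, as for RSAD2 with shRARRES2_3, from 0.27 to 4.15. A count of 0 allows up to 3 reads, which is 0.131 to 0.223 CPM by library.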
